A study of Mus musculus with 6 samples.

Results

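Genes of the tumour necrosis factor (TNF) system were followed in mouse T cells with and without Irf4: the ligand genes Tnf, Tnfsf8 and Tnfsf10, the receptor genes Tnfrsf9, Tnfrsf11a, Tnfrsf13b and Cd27, and Tnfaip3, which encodes the inhibitor A20. They were taken by symbol from the authors' deposited table of changed probes and comprise 8 of the 688 genes named there, on 9 of the 22749 probes of the array. Any further probes of these genes that were not listed carry no name here, so the 9 may not be all of their probes. That table lists a probe only if it changed over 2-fold with an unadjusted p under 0.05 between the same samples, and 3.64% of all probes met both limits. Every member therefore differed between genotypes by selection, and the counts of differing members below describe the set and support nothing further. The values nearest the limit belonged to Cd27 and Tnfaip3, at 2.06-fold and 2.12-fold in the authors' deposited table, and genes just outside it carry no name here.

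The cells compared were Irf4 -/- and, as controls, Irf4 +/-, with 3 samples each, so the controls also carried 1 mutant copy and no wild-type sample was measured. The description of Irf4 +/- replicate 3 reads IRF4+-/-, but its title and genotype both say heterozygous and were used. Both groups were naive CD4+ CD62L-high CD25-negative T cells from the spleens of C57BL/6J mice, kept for 42 h on plates coated with anti-CD3. The medium held anti-CD28, the cytokines TGF-beta, IL-6 and IL-23, and blocking antibodies to interferon gamma and IL-4, a mixture that drives the Th17 fate. The sources used here give neither the age of the mice, nor the deleted part of Irf4, nor whether the 3 replicates were separate animals, so the spread behind each p-value may be technical. Sample RNA carried Cy5 and competed on the array with a Cy3-labelled RNA pool from 11 mouse tissues, and each value is a log2 ratio of sample to that pool, with 0 marking equal signal.

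Ligands of the TNF superfamily are mostly membrane proteins that act as trimers, on the cell surface or after shedding, and their receptors carry cysteine-rich repeats outside the cell. Inside the cell, one class of receptors recruits TRAF adaptors and activates NF-kappaB, while another carries a death domain and can start apoptosis. A20, itself induced by NF-kappaB, edits ubiquitin chains on the signalling complex and shuts the pathway down. In T cells the family supplies costimulation, survival and death signals and, through TNF itself, inflammatory output.

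The targeted gene was lower in every null sample than in any heterozygous one, and lay above the tissue pool in all samples. Irf4 stood at log2 ratios of 0.62, 0.65 and 0.73 in Irf4 -/- replicates 1, 2 and 3, against 3.02, 2.85 and 2.93 in the Irf4 +/- replicates. Array medians lay between -0.03 and 0.06. Irf4 -/- replicate 1 correlated with the other null arrays at r = 0.915 and 0.936 across probes, below the 0.961 between those 2 arrays, and was the lowest null sample for 6 of the 8 members and the highest for 1. Of the genes listed for T cell and Th17 identity, 2 of 14 and 6 of 14 were named, and whether each is particular to these cells was not tested. No named probe was found for Cd3e, Cd4 or Il17a, so the labelled cell type could not be checked against them. Of the 6 named Th17 genes Il22 and Il12rb1 fell and 4 did not pass. Those 4 had log2 fold changes of -2.99 for Il21, -2.45 for Ccr6, -1.59 for Il23r and 1.09 for Il1r1 (limma adjusted p = 0.0638, 0.116, 0.13 and 0.0691). Neither of the 2 named T cell genes passed, with log2 fold changes of -2.28 for Cd247 and -1.23 for Cd28 (limma adjusted p = 0.0998 and 0.146). The null and heterozygous samples did not overlap for any of these 6 genes that did not pass, nor for 29.8% of all rows. The summed linear ratio of the named Th17 genes was 97.96 to 337.9 in Irf4 -/- samples, against 1079 to 1365 in Irf4 +/- samples. That of the 2 T cell genes was 1.797 to 3.172 in Irf4 -/- samples, against 7.607 to 12.71 in Irf4 +/- samples. The summed genes were selected for a difference between these same samples, so nothing is read from the distance between the sums. The Th17 sum rests mostly on Il21 and Il22, which had the highest log2 ratios of the 6 genes in every sample. Cd28 was listed at exactly 0 in null replicates 1 and 3, and Cd247 in null replicate 2. Every null sum of the 2 T cell genes thus rests in part on an exact 0. What an exact 0 stands for is not known here, so the lower null values of Cd247 and Cd28 may not all be measured. Over all probes, 5.28%, 3.77% and 2.22% of values were exactly 0 in Irf4 -/- replicates 1, 2 and 3. In Irf4 +/- replicates 1, 2 and 3 the shares were 1.71%, 0.673% and 3.24%. The part of the T cell and Th17 markers in the members' differences was not tested. In bulk RNA, fewer cells of a type and less RNA per cell cannot be told apart.

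The genotypes were compared with limma over 22621 genes and unnamed probes, with Benjamini-Hochberg adjustment over all of them and a threshold of 0.05. Of the 8 members, 5 passed: Tnf, Tnfrsf13b and Tnfaip3 were lower and Tnfsf10 and Tnfrsf11a higher in null cells. Over all rows 2.44% passed, 1.17% lower and 1.26% higher in null cells, and among the named genes, all selected for change, 51.9% passed. The groups did not overlap for any of the 8 members, where 29.8% of all rows had groups that did not overlap. All 8 had an unadjusted limma p under 0.05, as did 20.4% of all rows. The median size of change was 1.81 on the log2 scale among members, 1.36 among all 688 named genes and 0.27 among all rows, and nothing is read from this order, since the first 2 groups were selected for size.

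**Figure D1:**
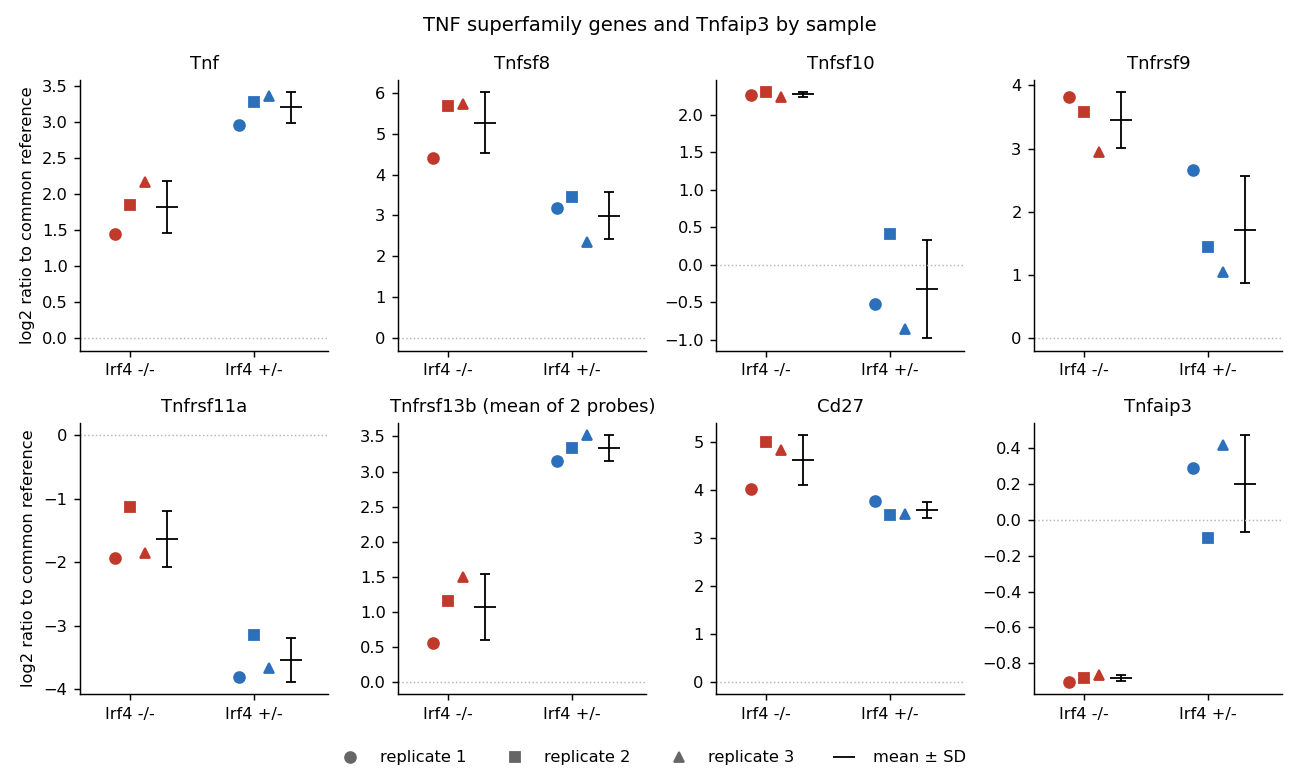
Log2 ratio to the common reference (vertical axis, with its own range in each panel) for the 8 members in 3 Irf4 -/- samples (red, left) and 3 Irf4 +/- samples (blue, right). Marker shape gives the replicate, the black bar the mean ± SD, and the dotted line equal signal in sample and reference. The 2 groups are apart in every panel, with the narrowest gaps for Cd27 (0.26) and Tnfrsf9 (0.29).

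Among the 3 ligand genes, Tnfsf10 was higher and Tnf lower in null cells, and Tnfsf8 had a positive value that did not pass. Tnfsf10 encodes TRAIL, an interferon-inducible ligand that triggers apoptosis through death receptors. Its log2 ratio was 2.27, 2.31 and 2.25 in Irf4 -/- replicates 1, 2 and 3, against -0.53, 0.41 and -0.86 in the Irf4 +/- replicates. Null cells thus lay above the tissue pool in every sample, while 2 of 3 heterozygous samples lay below it. The 3 null values were nearly equal, with a range of 0.06, whereas the heterozygous values spanned 1.27. Tnfsf10 rose 6.06-fold in null cells (95% confidence interval 3.51 to 10.5, log2 fold change 2.60, SE 0.32, limma adjusted p = 0.0223), the 25th largest of the 327 rises among named genes. Without heterozygous replicate 2, its highest control, the adjusted p was 0.0192. In each of the other 5 fits that left out 1 sample it was between 0.0615 and 0.117, with log2 fold changes of 2.33 to 2.62.

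Tnf encodes the founding member of the family, an inflammatory cytokine made by activated T cells and macrophages. Its log2 ratio was 1.45, 1.84 and 2.17 in Irf4 -/- replicates 1, 2 and 3, against 2.96, 3.28 and 3.36 in the Irf4 +/- replicates. Every sample lay above the tissue pool, and the highest null sample was 0.78 below the lowest heterozygous one. Tnf fell 2.59-fold in null cells (95% confidence interval 1.78 to 3.78, log2 fold change -1.38, SE 0.22, limma adjusted p = 0.0409). Of the 5 members that passed it was the one nearest the threshold. It missed it in all 6 fits that left out 1 sample, with adjusted p-values from 0.0514 without null replicate 3 to 0.174 without heterozygous replicate 3. Its genome neighbours Lta and Ltb, which encode the lymphotoxin ligands, had no named probe.

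Tnfsf8 encodes CD30 ligand, a surface protein of activated T cells. Its log2 ratio was 4.40, 5.67 and 5.72 in Irf4 -/- replicates 1, 2 and 3, against 3.19, 3.45 and 2.36 in the Irf4 +/- replicates. Null replicate 1 lay over 1 log2 unit below the other null samples but still above each heterozygous sample. The fitted difference was 4.81-fold (95% confidence interval 2.25 to 10.3, log2 fold change 2.27, SE 0.45) with a limma adjusted p of 0.0658. It was the member nearest the threshold among the 3 that did not pass. Scaling all arrays to 1 spread gave an adjusted p of 0.0404, and the methods' t-test gave 0.124 after adjustment. The 6 fits that left out 1 sample gave 0.0541 to 0.206, with log2 fold changes of 1.95 to 2.70.

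**Figure D2:**
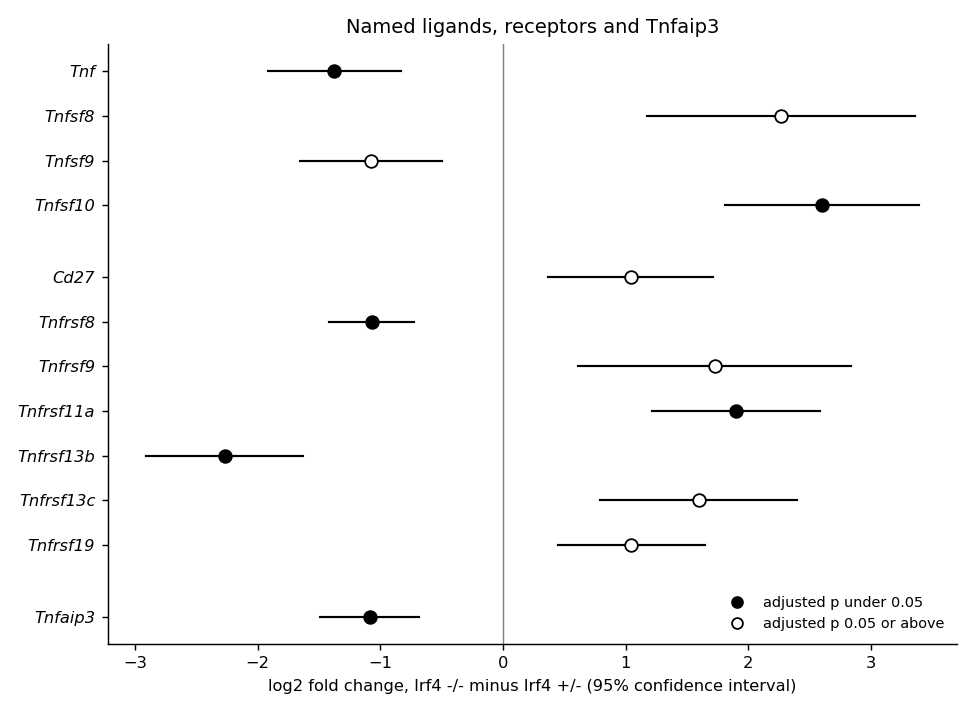
Log2 fold change of Irf4 -/- over Irf4 +/- cells (horizontal axis) for the 4 named ligand genes, the 7 named receptor genes and Tnfaip3, with lines for the 95% confidence interval. Filled points passed a limma adjusted p of 0.05 and open points did not. Values fall on both sides of 0 among ligands and among receptors, from -2.27 for Tnfrsf13b to 2.60 for Tnfsf10.

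The 4 receptor genes also went both ways. Tnfrsf13b fell and Tnfrsf11a rose, while Tnfrsf9 and Cd27 had positive values that did not pass. Tnfrsf13b encodes TACI, a receptor for BAFF and APRIL known mainly from B cells and plasma cells. It was the member with 2 listed probes, which were averaged for the comparison. The mean log2 ratio was 0.55, 1.16 and 1.49 in Irf4 -/- replicates 1, 2 and 3, against 3.15, 3.33 and 3.52 in the Irf4 +/- replicates, so that the closest samples of the 2 groups were 1.66 apart. Tnfrsf13b fell 4.82-fold in null cells (95% confidence interval 3.10 to 7.49, log2 fold change -2.27, SE 0.26, limma adjusted p = 0.0188), the smallest adjusted p of the 8 members. It passed without null replicate 1 (0.0329) and without null replicate 3 (0.0345). It did not pass without null replicate 2 (0.0968) or without heterozygous replicate 1 (0.0759), 2 (0.0611) or 3 (0.109).

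The 2 probes of Tnfrsf13b gave the same direction and different sizes. The first read -1.08, -0.05 and 0.31 in Irf4 -/- replicates 1, 2 and 3, against 2.59, 2.80 and 3.03 in the Irf4 +/- replicates, an 8.49-fold fall (log2 fold change -3.09, SE 0.37, limma adjusted p = 0.0170 with each probe tested alone). The second read 2.18, 2.36 and 2.67 in the null replicates and 3.70, 3.87 and 4.001 in the heterozygous replicates, a 2.74-fold fall (log2 fold change -1.45, SE 0.17, adjusted p = 0.0169). Taken within each array, the first minus the second was -3.26, -2.41 and -2.36 in null samples and -1.11, -1.06 and -0.97 in heterozygous samples. These differences did not overlap between genotypes, and the exact two-sided permutation p was 0.1, the smallest that 3 against 3 samples allow. The positions of the probes in the transcript are not given in the sources used here. Whether the probes read different transcripts or differ in background was not tested.

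Tnfrsf11a encodes RANK, the receptor of RANKL, which is known for its part in osteoclast formation and on dendritic cells. Log2 ratios were -1.93, -1.13 and -1.86 in Irf4 -/- replicates 1, 2 and 3, against -3.80, -3.15 and -3.66 in the Irf4 +/- replicates. It was the only member below the tissue pool in all 6 samples, and how far its signal stood above background is not known here. The null samples lay closer to the pool, with a gap of 1.23 between the groups. Tnfrsf11a rose 3.74-fold in null cells (95% confidence interval 2.32 to 6.02, log2 fold change 1.90, SE 0.28, limma adjusted p = 0.0342). It did not pass in any of the 6 fits that left out 1 sample, where the adjusted p ran from 0.0595 without heterozygous replicate 2 to 0.151 without heterozygous replicate 3.

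Tnfrsf9 encodes 4-1BB, a costimulatory receptor that appears on T cells after activation. Ratios on the log2 scale were 3.82, 3.57 and 2.96 in Irf4 -/- replicates 1, 2 and 3, against 2.67, 1.45 and 1.04 in the Irf4 +/- replicates. The heterozygous values spanned 1.62, the widest spread of any member, and heterozygous replicate 1 came within 0.29 of the lowest null sample. The fitted difference was 3.31-fold (95% confidence interval 1.53 to 7.17, log2 fold change 1.73, SE 0.46) with a limma adjusted p of 0.119. Leaving out 1 sample gave adjusted p-values of 0.088 to 0.302.

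Cd27 encodes a costimulatory receptor for CD70 that naive and memory T cells carry. Null cells had log2 ratios of 4.03, 5.004 and 4.85 in replicates 1, 2 and 3, against 3.77, 3.48 and 3.50 in the Irf4 +/- replicates. Null replicate 1 lay nearer to the heterozygous samples than to the other null samples. The fitted difference was 2.06-fold (95% confidence interval 1.29 to 3.29, log2 fold change 1.04, SE 0.28) with a limma adjusted p of 0.119. Without null replicate 1 the log2 fold change was 1.34 and the adjusted p 0.0447, and in the other 5 fits the adjusted p was 0.165 to 0.319.

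Tnfaip3, the gene of A20, was also lower in null cells. The log2 ratio was -0.90, -0.88 and -0.87 in Irf4 -/- replicates 1, 2 and 3, against 0.29, -0.10 and 0.42 in the Irf4 +/- replicates. The null samples agreed within 0.04 and lay below the tissue pool, and the heterozygous samples lay around it. Tnfaip3 fell 2.12-fold in null cells (95% confidence interval 1.603 to 2.81, log2 fold change -1.09, SE 0.17, limma adjusted p = 0.0366). Without heterozygous replicate 2, its lowest control, the adjusted p was 0.0393, and in each of the other 5 fits that left out 1 sample it was 0.081 to 0.155.

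Promoter windows of 250 bases before to 50 bases after the gene start were available from RefSeq for all 8 members, in 10 windows of the build GRCm38.p6. They were searched on both strands for the AP-1 site TGANTCA, and for 5 longer motifs given by name: the interferon-stimulated response element, a close and a spaced form of the AP-1 and IRF composite element bound by IRF4 with AP-1 factors in T cells, both of which contain the AP-1 site, and a narrow and a wide form of the NF-kappaB site. The wide form, which contains the narrow one, was added after the windows were seen. The AP-1 site was present in 2 of the 10 windows, against 7.81% of 32851 windows of all genes. The wide NF-kappaB form was present in the same 2 windows, against 4.51% of all windows. The other 4 motifs were in 0 of the 10 windows, against 3.44%, 0.125%, 0.119% and 0.411% of all windows in the order given. The windows with a match are printed from 5′ to 3′ on the strand of the gene, with the matches in capitals. The stretches TGAGTCA and TGACTCA are the AP-1 matches, and the other capitals mark the wide NF-kappaB form, with 2 overlapping matches in Tnfrsf9 and 2 separate ones in Tnfaip3, of which the second lies on the opposite strand. The AP-1 match begins 15 bases before the second of the 2 gene starts of Tnfrsf9, whose fitted value was higher in null cells, and 136 bases before the first start of Tnfaip3, which fell.
Tnfrsf9, chr4:150927749-150928048, plus strand: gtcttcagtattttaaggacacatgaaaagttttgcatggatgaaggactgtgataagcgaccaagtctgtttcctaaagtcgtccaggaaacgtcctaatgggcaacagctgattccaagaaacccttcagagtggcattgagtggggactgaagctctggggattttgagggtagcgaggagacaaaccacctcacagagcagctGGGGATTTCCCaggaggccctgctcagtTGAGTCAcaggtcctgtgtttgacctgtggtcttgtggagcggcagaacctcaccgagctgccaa
Tnfaip3, chr10:19015361-19015660, minus strand: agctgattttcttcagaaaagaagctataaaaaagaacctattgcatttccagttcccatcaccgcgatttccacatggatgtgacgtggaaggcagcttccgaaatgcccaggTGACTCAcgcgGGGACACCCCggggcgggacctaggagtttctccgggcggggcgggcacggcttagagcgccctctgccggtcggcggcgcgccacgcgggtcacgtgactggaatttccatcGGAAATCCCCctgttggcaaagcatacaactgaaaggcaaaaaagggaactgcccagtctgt
A match of letters is a description of the window, and the absence of a match says nothing of sites elsewhere in the gene.

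**Figure D3:**
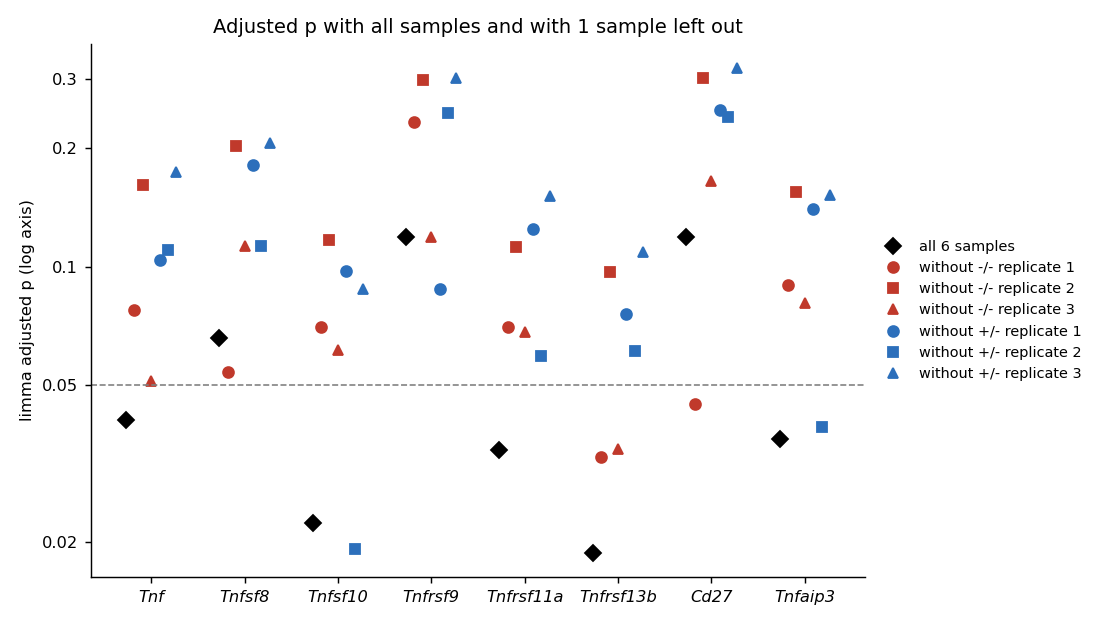
Limma adjusted p (log axis) of each member with all 6 samples (black diamonds) and with 1 Irf4 -/- sample (red) or 1 Irf4 +/- sample (blue) left out, with marker shape for the replicate and a dashed line at 0.05. With all samples 5 members lie under the line, and with 1 sample left out 0 to 2 do.

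Other genes of the pathway were taken from lists of TNF superfamily ligands, receptors and signalling proteins. Of 18 ligand genes 4 were named, which adds Tnfsf9 to the 3 members. One of the 4 passed in each direction, with a median log2 fold change of 0.59. Over all named genes, which the authors' limits selected in the same way, 51.9% passed and the median log2 fold change was -1.02, against -0.05 over all rows tested. Of 28 receptor genes 7 were named, which adds Tnfrsf8, Tnfrsf13c and Tnfrsf19 to the 4 members. One of the 7 rose and 2 fell, the remaining 4 missed the threshold, and the median log2 fold change was 1.05, beside the same values for all named genes; nothing is read from either list. Of 25 receptor adaptor and cell death genes only Map3k8 was named, and of 20 genes of A20 partners and other brakes only Tnfaip3. Map3k8, which encodes the kinase TPL2 downstream of TNF receptors, read 1.25, 1.41 and 1.64 in Irf4 -/- replicates 1, 2 and 3, against 2.71, 2.28 and 2.88 in the Irf4 +/- replicates, and fell 2.28-fold (limma adjusted p = 0.0455). It missed the threshold in all 6 fits that left out 1 sample, with adjusted p-values of 0.055 to 0.175. None of 16 genes of NF-kappaB subunits, their inhibitors and their kinases was named. A gene without a name had no probe under that symbol past both of the authors' limits, and whether it was on the array is not known here.

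Both partners were named for 2 ligand and receptor pairs, and in each pair the ligand and the receptor had fold changes of opposite sign. For CD30 ligand and CD30, the ligand gene Tnfsf8 had a positive value that did not pass, as given above, and the receptor gene Tnfrsf8 fell. Tnfrsf8 read 0.63, 0.38 and 0.38 in Irf4 -/- replicates 1, 2 and 3, against 1.54, 1.39 and 1.66 in the Irf4 +/- replicates, a 2.10-fold fall (log2 fold change -1.07, SE 0.14, limma adjusted p = 0.0260). Its adjusted p was 0.048 without null replicate 1 and 0.058 to 0.133 in the other 5 fits that left out 1 sample. For 4-1BB ligand and 4-1BB, neither gene passed. Tnfsf9, the ligand gene, read -2.11, -2.57 and -2.11 in the null replicates, against -0.86, -1.58 and -1.12 in the heterozygous replicates (log2 fold change -1.08, SE 0.24, adjusted p = 0.0822), while Tnfrsf9 had the positive value given above. The difference between partners was not tested.

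Tnfrsf13b and Tnfrsf13c, which encode TACI and the BAFF receptor and share the ligand BAFF, also had values of opposite sign. Tnfrsf13c read 0.92, 0.95 and 1.34 in Irf4 -/- replicates 1, 2 and 3, against -0.04, -1.23 and -0.31 in the Irf4 +/- replicates. Its log2 fold change was 1.597 (SE 0.33) with a limma adjusted p of 0.0724. Tnfrsf19, which encodes TROY, lay far below the tissue pool in both groups, at -4.45, -5.05 and -4.23 in the null replicates and -5.62, -5.84 and -5.41 in the heterozygous replicates (log2 fold change 1.05, SE 0.25, adjusted p = 0.0939). No named probe was found for the ligand or receptor partners of Tnf, Tnfsf10, Tnfrsf11a or Cd27 on these lists.

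**Figure D4:**
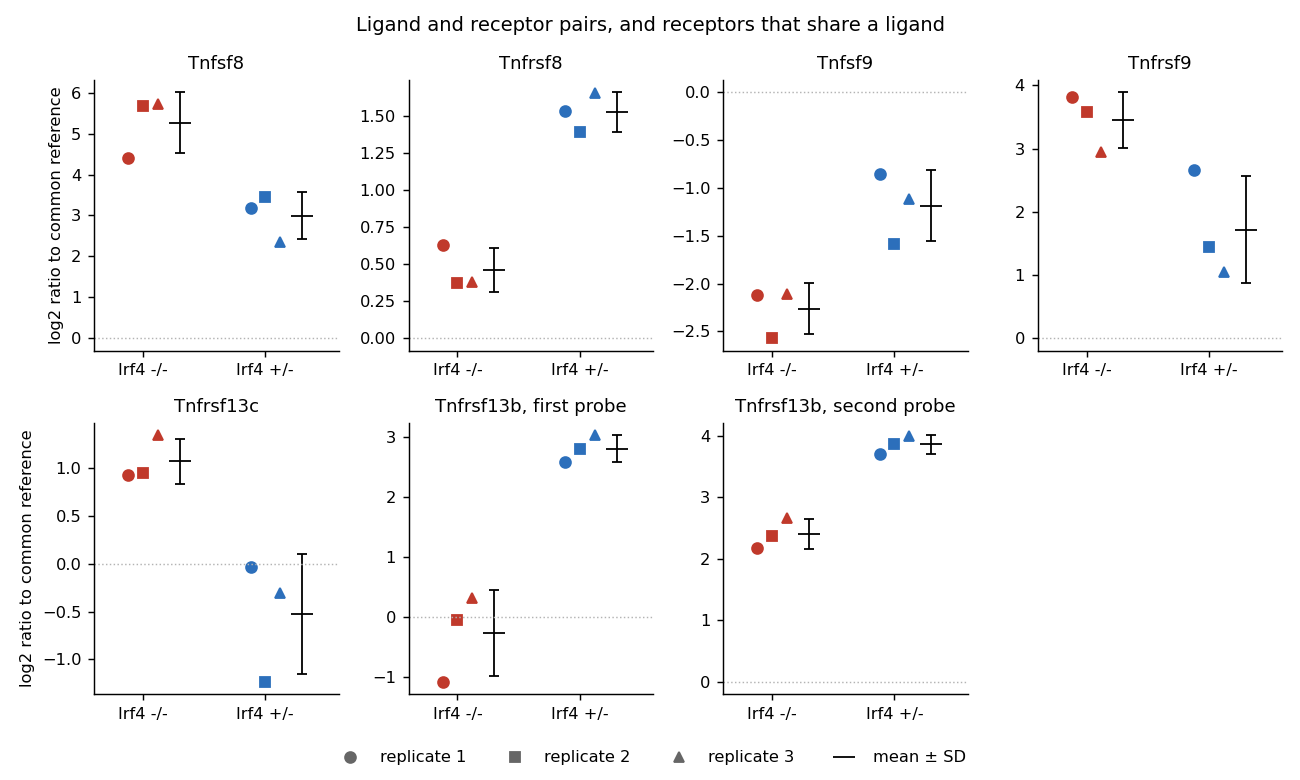
Log2 ratio to the common reference (vertical axis, with its own range in each panel) in 3 Irf4 -/- samples (red, left) and 3 Irf4 +/- samples (blue, right) for Tnfsf8 and its receptor gene Tnfrsf8, Tnfsf9 and its receptor gene Tnfrsf9, Tnfrsf13c, and the 2 listed probes of Tnfrsf13b. Marker shape gives the replicate, black bars the mean ± SD and the dotted line equal signal; Tnfsf8 and Tnfrsf9 lie higher in null samples, their partners Tnfrsf8 and Tnfsf9 lower.

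Some members are also expressed by cells other than CD4+ T cells, and markers of such cells moved in both directions. The named ones were selected by the authors' limits for change in the same way as the members. Of 20 B cell and plasma cell markers 2 were named: Cd24a fell 5.24-fold and Sdc1 rose 2.63-fold in null cells (limma adjusted p = 0.00855 and 0.0248), and the summed linear ratio of the pair was 0.469 to 0.495 in null and 0.873 to 1.28 in heterozygous samples. Of 16 dendritic cell and MHC class II markers 3 were named: Cd86 fell 5.45-fold, H2-DMb1 rose 2.35-fold and Itgax had a log2 fold change of -1.32 (adjusted p = 0.123), with sums of 1.14 to 1.33 in null and 1.43 to 1.62 in heterozygous samples. Of 11 NK cell and CD8 T cell markers 4 were named, with sums of 46.0 to 78.3 in null and 22.2 to 56.8 in heterozygous samples. Klre1 fell 11.9-fold (adjusted p = 0.0388) and was listed at exactly 0 in null replicate 2. Cd8a read 4.71, 4.28 and 4.75 in Irf4 -/- replicates 1, 2 and 3, against 3.33, 4.003 and 2.53 in the Irf4 +/- replicates (log2 fold change 1.29, adjusted p = 0.143), although the cells were selected for CD4. Prf1 and Eomes had log2 fold changes of 2.36 and 1.41 (adjusted p = 0.120 and 0.130), Eomes at exactly 0 in heterozygous replicate 3. None of 12 monocyte and granulocyte markers was named. When each sample was left out in turn, giving 6 fits, Cd24a passed in 4, H2-DMb1 in 3, Cd86 in 2, Sdc1 in 1 (without heterozygous replicate 1) and Klre1 in 0, and Eomes gained the threshold in 1. The part of such cells in the differences of Tnfrsf13b, Tnfrsf9, Cd27, Tnfsf10 and Tnfrsf11a was not tested.

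For each member, the 2 named genes outside the set with the most similar 6 log2 ratios were found by Pearson's r over the 6 arrays, which share 1 reference and 1 split into genotypes. Tnf was most like Smad3, a TGF-beta signal transducer (r = 0.996), and Calhm2 (0.995). Tnfrsf13b was most like Kynu, which encodes a tryptophan-catabolic enzyme (0.9995), and Smad3 (0.9994). Tnfaip3 was most like Fndc3c1 and Wdfy2 (0.998 each), and Tnfsf10 most like Zfp945 (0.9961) and Sesn1 (0.9955). Among members that did not pass, Tnfsf8 was most like Gm1966 (0.985) and Clec2i (0.982), Tnfrsf9 like Cpeb4 and Dhh (0.988 each), and Cd27 like Tnc (0.984) and Megf10 (0.975). Tnfrsf11a was most like LOC668139 (0.986) and Ncoa2 (0.984). The number of the 680 other named genes with r above 0.9 was between 40 for Cd27 and 235 for Tnfrsf13b. All 680 were selected for a difference between the same groups. High r among genes that changed in the same direction follows in part from that selection, and nothing is read from it. Of the 80 protein-coding genes that lie within 5 genes of a member in the genome, 2 were named, Tnc beside Tnfsf8 and Bcl2 near Tnfrsf11a.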

How the data were processed

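Total RNA of 6 samples was profiled on 2-colour Agilent arrays. Per the submitters' processing notes, the tools were Agilent Feature Extraction 10.7 for scanning output and Partek for processing. The deposited values are log2 ratios of sample to reference, called normalized per the file headers; the log base and direction were settled from the values, since differences of group means matched the authors' fold changes within 1.03e-05 on the log2 scale for all 828 listed probes. The unadjusted p-values and fold changes in the authors' deposited table come from a 1-way ANOVA in Partek, per the file headers. Dyes were not swapped. No dim probe was filtered and no slide or scan batch was tested, because intensities, background flags and scan details were not used here, and the number of arrays limits the precision.

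Listed probes of 1 gene were averaged, and 113 older symbols were updated through RefSeq synonyms. The 22621 rows were fitted with limma 3.58.1 (lmFit, eBayes) in R 4.3.3 without covariates. The code was also run on simulated data with independent noise in each row. That simulation held no differences in quality between arrays, so it does not test the fit under those seen here. The block on replicate number was an alternative: samples with the same number had deviations from their group means that correlated at r = 0.097, -0.012 and -0.037, so the numbers were not taken as pairs. Members, gene lists, tests and alternatives were chosen with earlier results of these data known. Named are every member, Irf4, other listed pathway genes and markers with a named probe, and for each member the 2 genes with the highest r. Tnc and Bcl2 as genome neighbours, and the pairs of ligand and receptor, were chosen after their values were seen. The wide NF-kappaB motif was added after seeing the data. A planned comparison of protein sequences was not made.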

Additional observations from a re-analysis of the deposited data

How the results depend on the processing

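No member and no Irf4 value changed sign under any alternative, and nothing is read from this. Selection for a difference fixes the sign in the fits that left out a sample. The estimates are the same by construction with robust empirical Bayes, the methods' t-test and the replicate block. The same holds with exact 0 as missing and, for the rows kept, without the most variable rows. Of 551 rows past the threshold in the limma fit, the number was 9419 with array weights (41.4 for null replicate 2), 4807 with the methods' t-test unadjusted, 1828 without the most variable 25% of rows, 1296 at an adjusted p under 0.1, 361 with at least a 2-fold change, and 30 to 239 with 1 sample left out. Of the 8 members, 5 passed. The number was 8 with array weights and with the methods' t-test unadjusted, 1 with that test after Benjamini-Hochberg adjustment (Tnfrsf13b, 0.0476), and 0 to 2 with 1 sample left out, where all 8 kept an unadjusted limma p under 0.05. So did 13.5% to 25.6% of all rows in those fits, and the members were chosen from genes listed for such a p on these samples. It was 0 without null replicate 2 and without heterozygous replicate 1 or 3, 1 without null replicate 3, and 2 without null replicate 1 or heterozygous replicate 2. With the replicate block in limma, 13 rows and 0 members passed, while all 8 members and 16.5% of all rows had an unadjusted p under 0.05, and Irf4 had an adjusted p of 0.0534. Leaving out the most variable rows removed Tnfsf8, Tnfsf10 and Tnfrsf9 and gave Cd27 a limma adjusted p of 0.0363. The rows were ranked by their spread within genotypes, which is also the error of this comparison. The row count and p-values of that setting are therefore not like those of the main fit. The adjusted t-test gave 777 rows. Settings not yet named gave 380 to 725 rows and 5 or 6 members. Fewer samples and fewer rows are part of some of these settings, and what caused the remaining shifts was not tested. Signal over background was not used here, so whether low ratios such as those of Tnfrsf11a and Tnfrsf19 are measured above it is not known.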
